A study of Mus musculus with 24 samples.

Results

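Gene expression in dorsal root ganglia (DRGs) of *Nfil3* knockout (KO) mice was compared between day 5 and day 2 after a sciatic nerve lesion. The comparison used the 4 samples titled as KO day 5 and the 4 titled as KO day 2, which are 8 of the 24 samples of the series, and all 41174 probes that are not array controls, which carry 27398 gene names. It asks how the DRG response moves from its early to its later phase in mice without NFIL3. The other 16 samples are KO control, WT control, WT day 2 and WT day 5 DRGs, in 4 replicates each.

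All animals were adult male mice of the C57BL/6J strain. KO mice were *Nfil3* -/-, from mice with a loxP-flanked *Nfil3* allele crossed with a line that expresses Cre under a CMV promoter, so that the gene was lost in the whole animal and not in neurons alone. WT mice were +/+ littermates. In every animal the sciatic nerve was cut on the left and its ends were sutured together again. L4 and L5 DRGs were taken from the lesioned side for the day 2 and day 5 groups, and from the uninjured side for the control groups, so that control DRGs came from mice that carried a lesion elsewhere. The labels call the tissue DRG neurons, but whole ganglia were dissected. Day 2 and day 5 are necessarily different animals, and the sources used here do not say how many animals stood behind a sample.

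A cut sensory axon sets off a program in the neuron cell body in which transcription factors, growth proteins and neuropeptides are induced, while macrophages, satellite glia and Schwann cells of the ganglion respond in parallel. NFIL3 (also called E4BP4) is a repressor of the bZIP family that is related to the PAR bZIP factors DBP, HLF and TEF of the circadian clock. It shares binding sites with CREB and C/EBP factors and is itself induced in injured DRGs.

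RNA was hybridized to Agilent 4x44K arrays that carried a different sample in each color, and each color was read as a sample of its own. All levels below are quantile normalized log2 signals of the probe with the highest mean of a gene, and every change is the day 5 mean minus the day 2 mean on that log2 scale, with its standard error (SE). The values of replicates 1 to 4 are given in that order. A gene passed when its Benjamini-Hochberg adjusted p in limma, over all probes, was under 0.05, and only such genes are said to have risen or fallen. A signal of a probe cannot be set against that of another probe.

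Markers bore out that the samples were DRG tissue, but not neurons alone. Of 17 sensory neuron genes such as *Isl1*, *Prph* and *Avil*, 16 or 17 were above background in each of the 8 samples, and their summed log2 signal lay between 18.22 and 18.46 at day 2 and between 18.33 and 18.50 at day 5. The same held for 19 satellite glia genes, at 18.77 to 18.88 and 18.72 to 19.07. Markers of Schwann cells, macrophages, neutrophils and erythrocytes were also present. Between 61.5% and 69.7% of probes were well above background in the day 2 samples and between 64.7% and 70.1% in the day 5 samples, and no spot was saturated.

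The deleted gene had log2 signals of 5.30, 4.14, 3.03 and 6.22 at day 2 and of 5.81, 3.40, 5.66 and 2.82 at day 5, against 8.44 to 11.08 in the WT samples. *Nfil3* was above background in the 4 KO samples that shared an array with a WT sample (day 2 replicates 1 and 4, day 5 replicates 1 and 3) and in none of the 4 whose array partner was another KO sample. KO controls did not follow this order, since replicates 2 and 3, with WT control partners, were not above background (3.80 and 4.37) and replicate 4, with a KO day 5 partner, was. The *Nfil3* change over the interval was -0.25 (SE 0.81, adjusted p 0.962), and groups overlapped. The KO control labelled replicate 4 had 7.59, while the others had 2.94 to 4.37. Another label field of that sample gives day 5. In the test of day 5 against day 2 this sample entered only the shared estimate of the spread. Without it 254 genes passed in place of 267. It is also part of every KO control mean, SD and range given here.

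The day 2 samples differed among themselves. The first principal component of the 8 samples, with 28.6% of the variance, put day 2 replicates 2 and 3, whose array partners came from another time point, apart from replicates 1 and 4, whose partners were WT day 2 samples. The second component, with 21.8%, separated day 5 from day 2. In day 5, replicates 1 and 3 had partners of the same time point, and all 4 samples had a first component between -17.8 and -1.14, beside 38.1 and 35.9 in day 2 replicates 2 and 3. Of 55 examined genes that rose, 26 had a change over 1.5 times larger among samples with partners of another time point and 1 among those with partners of the same one. Of 26 that fell, 7 had the larger change in the former and 7 in the latter. Values of both subsets, each with 2 samples a day, are given below for a part of these genes. In the 8 samples every partner of the same time point was a WT sample, and every partner of another one a KO sample. With partners of the same time point, day 5 samples were on slide 1 and day 2 samples on slides 2 and 3. With partners of another one, day 5 samples were on slide 2 and day 2 samples on slides 2 and 1. Partner time, partner genotype and slide thus cannot be told apart in these subsets, and the part of the array partner was not tested.

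**Figure D1:**
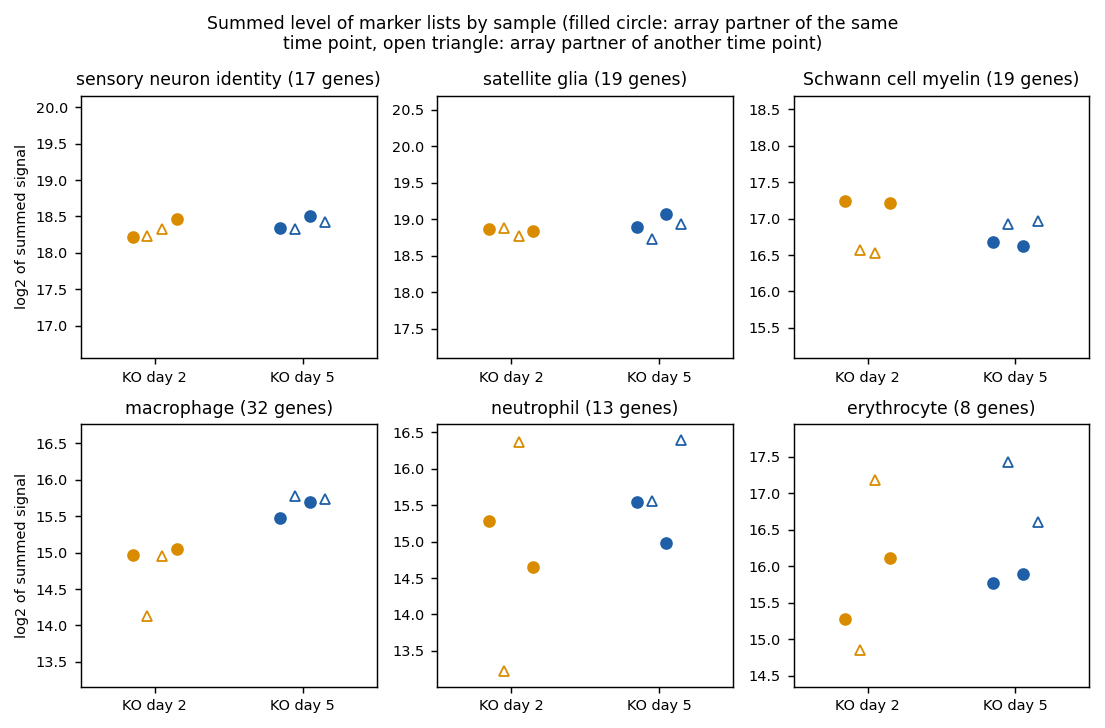
Summed log2 signal of 6 marker lists in each KO day 2 and KO day 5 sample. Filled circles are samples whose array partner was of the same time point, open triangles samples whose partner was of another one. The macrophage sum was above 15.4 in all day 5 samples and below 15.1 in all day 2 samples, while sensory neuron and satellite glia sums overlapped between days.

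From day 2 to day 5, 267 genes passed in KO DRGs, which is 0.975% of 27398. Of these, 207 rose (0.756%) and 60 fell (0.219%), and 86 and 15 of them by at least 2-fold. The median change was 0.91 among genes that rose, with a range of 0.31 to 2.33, and -0.76 among genes that fell. In 206 of the 207 and 59 of the 60 genes all 4 samples of a day lay on the same side of all 4 of the other, which was so for 3.19% (upward) and 2.45% (downward) of all genes. Over all genes the median change was -0.006. At an unadjusted p under 0.05, 1600 genes (5.84%) were higher and 1137 (4.15%) lower, and of the genes above background in at least 4 of the 8 samples 1.48% passed. Among the 10 strongest risers by the naming rule were *Anxa10*, *Oas2*, *Ms4a7*, *Ccl8*, *Folr2* and *Car1*, and among the 10 strongest fallers the 3 serum amyloid genes, *Fam150b* and *Timp1*.

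The precision came from all 24 samples. When only the 8 samples were fitted, with 6 in place of 18 residual degrees of freedom, limma called 0 genes (smallest adjusted p 0.0815). Of the 27398 genes 2133 had an unadjusted p under 0.05 there. All 267 genes were among those, but they were chosen by a change estimated from these same 8 samples. That they are among the 2133 is therefore no support for their calls. Leaving out KO day 5 replicate 2, 3 or 4 or KO day 2 replicate 2 lowered the number of genes that passed to 147, 145, 168 and 156, respectively.

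**Figure D2:**
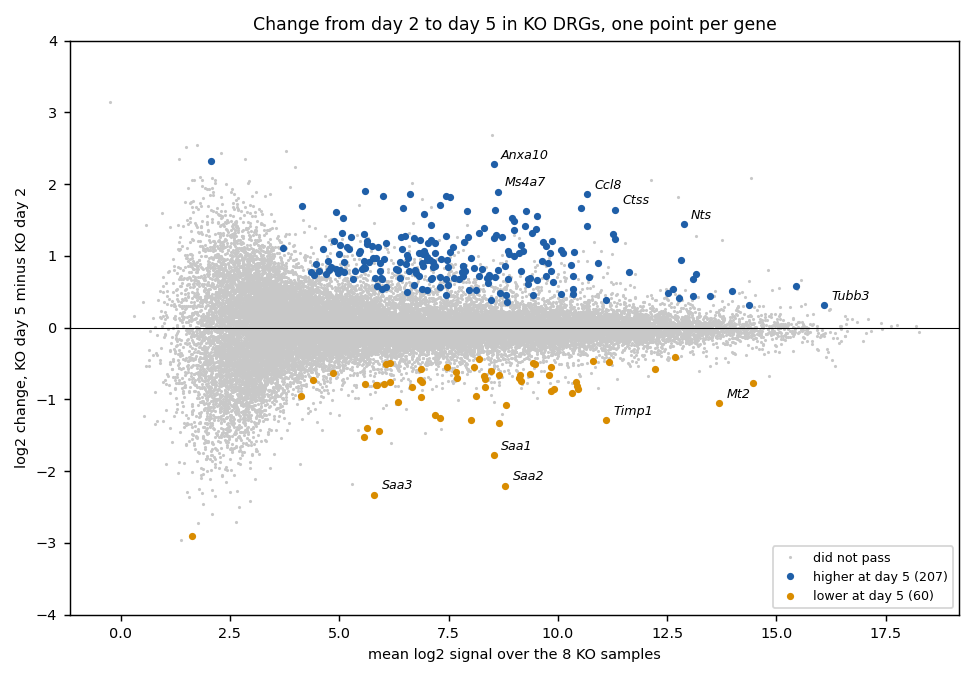
Change from day 2 to day 5 in KO DRGs (vertical axis, log2) against the mean log2 signal over the 8 KO samples, with a point per gene. Blue points are the 207 genes that rose, orange points the 60 that fell, and grey points did not pass. 3 grey points lie beyond the axis limit of 4. Genes that passed reach from dim probes to *Tubb3*, whose signal was above 15 in every sample.

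Of the 32 lists, that of macrophage genes held the most risers. Of its 32 genes 13 rose, 0 fell and 19 did not pass, with a median change of 0.86, beside 0.756% that rose and a median of -0.006 over all genes. Those that rose were *Ms4a7*, *Ctss*, *Trem2*, *Cx3cr1*, *Csf1r*, *Mpeg1*, *Clec7a*, *Emr1*, *Fcgr1*, *Tyrobp*, *Cd84*, *Laptm5* and *Ccr2*. Among those that did not pass, *Lgals3*, *Spp1* and *Gpnmb* had 0.14, 0.27 and -0.26.

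*Ms4a7*, a membrane protein of tissue macrophages (probe in mm9 at chr19:11396026-11396801), had 7.97, 7.37, 7.67 and 7.70 at day 2 and 9.64, 9.63, 9.87 and 9.16 at day 5. Every day 5 sample was higher than every day 2 sample, and day 2 overlapped the KO controls (mean 7.48 ± 0.39, SD, n = 4). The change was 1.90 (SE 0.19, adjusted p 3.54e-05), or 3.72-fold, and a second probe gave 1.84. *Trem2*, a lipid-sensing receptor of macrophages and microglia, had 8.84, 8.11, 8.16 and 8.68 at day 2 and 9.82, 10.20, 10.24 and 10.02 at day 5. Here day 2 was already above the controls (7.63 ± 0.28, SD, n = 4), and days did not overlap. It rose by 1.62 (SE 0.17, adjusted p 6.29e-05).

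*Ctss*, the lysosomal protease cathepsin S, had 10.55, 9.86, 10.61 and 10.96 at day 2 and 11.96, 12.18, 12.42 and 12.00 at day 5. All day 5 samples were higher, and the change was 1.65 (SE 0.25, adjusted p 0.00147), or 3.13-fold. *Csf1r*, the receptor for the growth factor that keeps macrophages alive, rose by 1.55 (SE 0.22, adjusted p 0.000639). *Cx3cr1*, the fractalkine receptor of monocytes and resident macrophages, rose by 1.58 (SE 0.21) by its brighter probe, while a second probe gave 0.23 (adjusted p 0.844). *Emr1* (F4/80, now *Adgre1*) rose by 1.41 and *Mpeg1*, a pore-forming protein of phagocytes, by 1.52.

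Further genes that macrophages are known to express, outside the list, rose too. All but *Folr2* and *Ltc4s* were chosen after their values were seen. *Igf1*, a growth factor that macrophages and other cells secrete, rose by 1.32 (SE 0.15, adjusted p 0.000111), from 8.04, 7.31, 7.33 and 7.49 to 8.90, 8.89, 8.97 and 8.69. *Folr2*, a folate receptor of resident macrophages, rose by 1.86 (adjusted p 0.0103), *Ltc4s*, leukotriene C4 synthase, by 1.84 (adjusted p 0.000576) and *Clec10a*, a lectin of macrophages and dendritic cells, by 1.62 (adjusted p 0.00867). The microglia-associated genes *Tmem119*, *P2ry13* and *Fcrls* rose by 1.23, 1.32 and 1.27. *Siglec1*, an adhesion receptor of macrophages, rose by 1.15 and *Tlr2*, a receptor for bacterial lipoproteins, by 0.97. With KO day 2 replicate 2 left out *Folr2* had an adjusted p of 0.0507, and *Siglec1* (3 samples, 0.0536 to 0.0685) and *Tmem119* (5 samples, 0.0633 to 0.132) lost their calls with any of the samples counted here left out.

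The summed log2 signal of the macrophage list was 14.97, 14.14, 14.95 and 15.06 at day 2 and 15.47, 15.78, 15.70 and 15.74 at day 5, against 14.11 to 14.45 in KO controls. All 32 genes were above background in each of the 8 samples. In whole ganglia a change in the number of cells of a type and a change of RNA per cell cannot be told apart. Neutrophil sums overlapped, at 13.23 to 16.37 and 14.98 to 16.39, and so did erythrocyte sums, at 14.86 to 17.19 and 15.77 to 17.44. Adipocyte sums were 9.44 to 9.92 at day 2 and 10.17 to 11.70 at day 5, and their part in the result was not tested.

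The number that passed differed between the array partner subsets. Among samples with partners of the same time point 2 of the 32 genes passed, with a median change of 0.48, and among those with partners of another time point 11 passed, with a median of 1.22. With the array partner as a block 11 passed and the median stayed at 0.86. *Ms4a7* changed by 1.92 and 1.88 in these subsets, *Trem2* by 1.27 and 1.98, and *Csf1r* by 1.13 and 1.98. Outside the list *Folr2* had 1.24 and 2.48, *Siglec1* 0.72 and 1.59, and *Clec10a* 1.25 and 2.00. Without KO day 2 replicate 2, or without KO day 5 replicate 2, 7 of the 32 passed. *Ccr2* (0.77, adjusted p 0.0463) lost its call when any sample but KO day 2 replicate 4 was left out, with adjusted p between 0.069 and 0.163.

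Complement genes rose in part. Of 17 listed members 3 rose and 0 fell, with a median of 0.36, beside 0.756% that rose over all genes. *C1qa*, a chain of the recognition molecule C1q that macrophages make, had 9.29, 8.34, 8.10 and 9.25 at day 2 and 9.90, 10.44, 10.15 and 9.78 at day 5. Days did not overlap, yet day 2 replicates 1 and 4 were near the day 5 samples, and the change was 1.32 (SE 0.25, adjusted p 0.00971). By array partner it was 0.76 (same time point) and 1.89 (another time point), and that of *C1qb* 0.84 and 1.44. *C1qb* rose by 1.14 and the receptor *C3ar1* by 0.91, while *C1qc* had a change of 1.19 with an adjusted p of 0.0512. The calls of *C1qa* and *C1qb* were narrowly lost with some single samples left out. *C1qa* had an adjusted p of 0.0527 without KO day 5 replicate 2, and *C1qb* 0.0518 without KO day 2 replicate 2 and 0.0537 without KO day 5 replicate 3. *C3* and *C4b*, the central components, had -0.21 and 0.20.

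Of 12 listed MHC class II genes, which present peptides to T helper cells, 3 rose and 0 fell, with a median of 0.65. Over all genes 0.756% rose. These 3 listed genes had means below the controls at day 2 and above them at day 5. *H2-Aa* had 8.13, 7.68, 8.0 and 7.96 at day 2 and 9.19, 9.36, 9.68 and 8.69 at day 5, beside 8.64 ± 0.33 (SD, n = 4) in controls. No day 2 sample reached a day 5 sample, and the change was 1.29 (SE 0.24, adjusted p 0.00877). *H2-Ab1* rose by 1.31 (adjusted p 0.0313) from a mean of 10.62, with controls at 11.50, and *Cd74*, the invariant chain, by 1.23 (adjusted p 0.0378) from 10.69, with controls at 11.35. *Ciita*, the master regulator of these genes, had 0.70 and did not pass. *H2-Ab1* lost its call when any sample except KO day 5 replicate 4 and KO day 2 replicate 4 was left out (adjusted p 0.0513 to 0.121), and *Cd74* in 5 of 8 such cases (0.0543 to 0.149). By array partner *Cd74* changed by 0.78 (same time point) and 1.68 (another).

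Among 28 chemokines and receptors 4 rose and 0 fell, with a median of 0.40, beside 0.756% that rose over all genes. *Ccl8*, a monocyte attractant, had 10.26, 9.54, 9.56 and 9.63 at day 2 and 11.71, 11.80, 11.86 and 11.05 at day 5, with controls at 7.73 ± 0.45 (SD, n = 4). Each step was upward without overlap, and the interval change was 1.86 (SE 0.33, adjusted p 0.00594), or 3.63-fold. *Cxcl16*, a membrane-bound ligand of T cells, rose by 1.04 (adjusted p 0.00222), and the receptors *Cxcr3* and *Ccr2* by 1.26 and 0.77. *Cxcr3* passed without KO day 5 replicate 1 or KO day 2 replicate 1 and lost its call when any of the other 6 samples was left out (adjusted p 0.0623 to 0.154). The neutrophil attractants *Cxcl1* and *Cxcl2* had -0.38 and -0.93 and did not pass.

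Interferon response genes did not move as a group, with a median of -0.04 over 27 genes, of which only *Oas2* passed, beside 0.975% of all genes. *Oas2*, a sensor of double-stranded RNA, had 4.81, 4.09, 4.45 and 5.19 at day 2 and 6.37, 6.68, 6.50 and 6.63 at day 5, beside 5.73 ± 0.21 (SD, n = 4) in controls. Day 2 was thus below and day 5 above control. The change was 1.91 (SE 0.24, adjusted p 0.000266), but the second probe of the gene was above background in none of the 8 samples and gave 0.32. By array partner the brighter probe had 1.44 (same time point) and 2.38 (another). *Mx2* and *Ifit2* of the same list had -0.39 and -0.44.

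**Figure D3:**
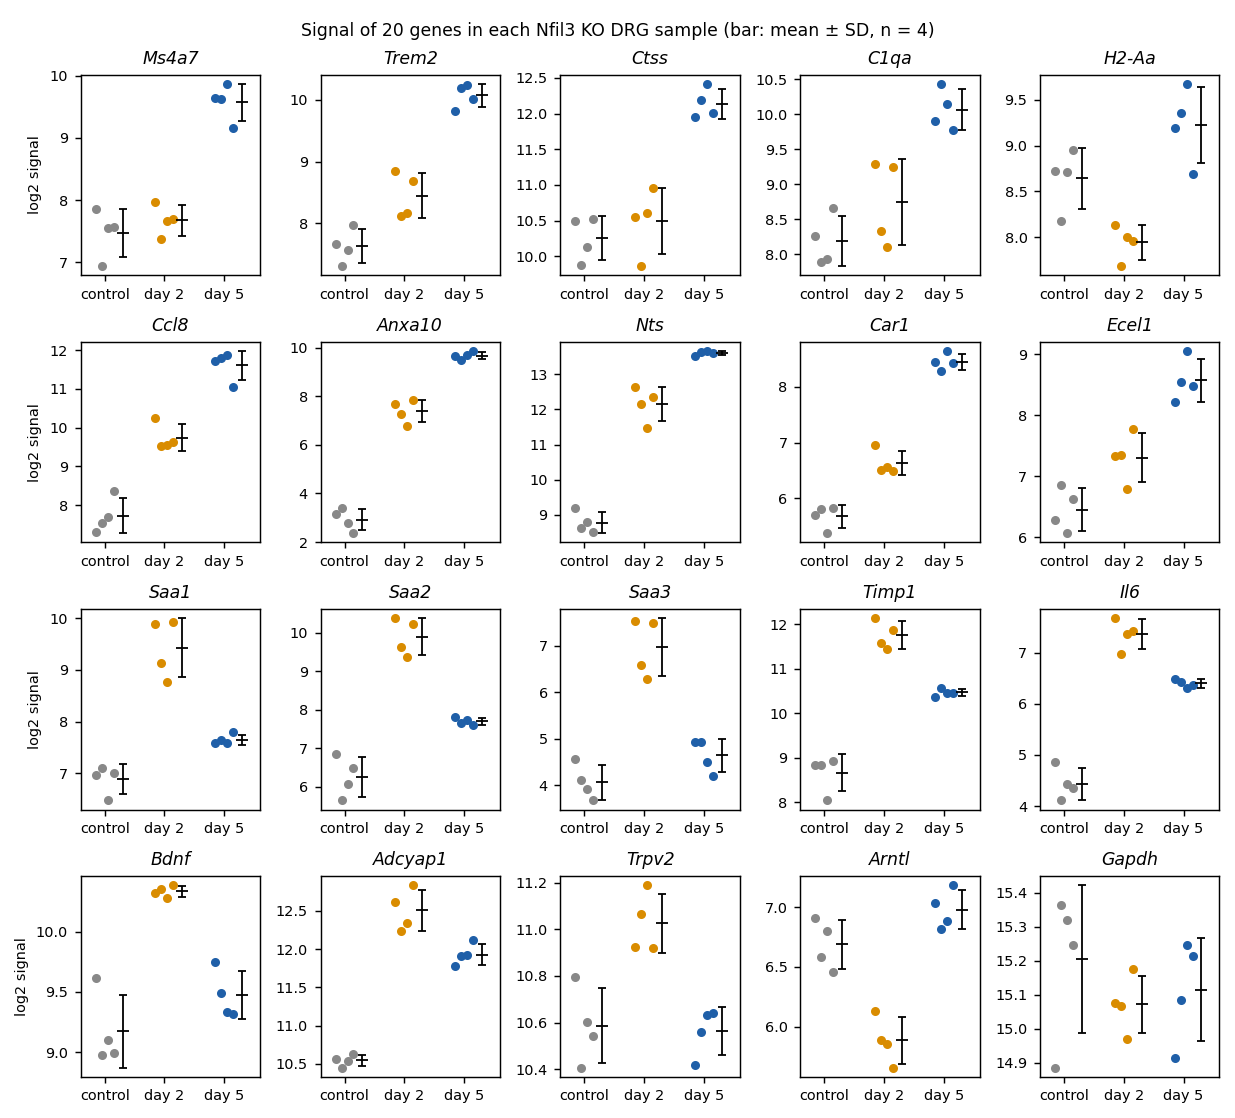
Log2 signal (vertical axes) of 20 genes in each of the 4 KO control (grey), KO day 2 (orange) and KO day 5 (blue) samples, with mean and SD (n = 4) as bars. *Ms4a7*, *Anxa10* and *Car1* were higher in every day 5 sample than in every day 2 sample, *Saa1*, *Saa2* and *Saa3* lower, and *Gapdh* overlapped.

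Several strong risers belong to none of the immune lists. *Anxa10*, an annexin of unclear function (probe at chr8:64536504-64536563 in mm9), was above background in none of the KO controls, with a mean of 2.92 ± 0.44 (SD, n = 4). It had 7.70, 7.26, 6.79 and 7.82 at day 2 and 9.65, 9.49, 9.68 and 9.87 at day 5. Day 5 was the higher in every sample and varied less, and the change of 2.28 (SE 0.23, adjusted p 4.12e-05), or 4.86-fold, was the highest of the 206 genes that rose with at least a bound on their fold. *Nts*, the precursor of the neuropeptide neurotensin, had 12.63, 12.16, 11.47 and 12.35 at day 2 and 13.51, 13.63, 13.66 and 13.59 at day 5. It rose by 1.44 (SE 0.19, adjusted p 0.000407) without overlap, from a control mean of 8.78 ± 0.30 (SD, n = 4), and by 1.10 and 1.79 with array partners of the same and of another time point.

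*Car1*, carbonic anhydrase 1, had the smallest adjusted p of all genes. Its signals were 6.95, 6.52, 6.56 and 6.49 at day 2 and 8.44, 8.29, 8.64 and 8.42 at day 5, with controls at 5.68 ± 0.21 (SD, n = 4). Differences within a day were far below that between days, which was 1.82 (SE 0.12, 95% interval 1.56 to 2.08, adjusted p 1.93e-07). The change was 1.82 in both array partner subsets. *Car3*, another carbonic anhydrase, rose by 1.66 by its brighter probe, while the second gave 0.92 (adjusted p 0.767).

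*Reg1*, a secreted lectin of regenerating tissues, had 7.21, 6.42, 5.76 and 6.71 at day 2 and 8.47, 8.18, 8.42 and 8.36 at day 5. It rose by 1.84 (SE 0.25, adjusted p 0.000548). Its relative *Reg3b* rose by 1.61 (adjusted p 0.0309), with 2 of 4 day 2 samples above background, and passed with KO day 2 replicate 1 or KO day 5 replicate 4 left out but with none of the others (adjusted p 0.0509 to 0.102). The calcium signalling genes *Pde1a*, a calmodulin-dependent phosphodiesterase, and *Itpr1*, an IP3 receptor, rose by 1.38 (adjusted p 4.12e-05) and 0.90 (adjusted p 0.000153). The adhesion molecule *Chl1* rose by 0.95 and the junction protein *Ajap1* by 1.64. These last 4, *Car3* and *Reg3b* were chosen after their values were seen. In whole ganglia the cells that these transcripts came from are not known. By array partner (same and another time point) *Chl1* changed by 0.68 and 1.22, *Car3* by 1.29 and 2.04 and *Ajap1* by 1.31 and 1.98.

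Of 30 axon growth genes 2 rose and 0 fell, with a median of 0.13, beside 0.756% that rose over all genes. *Ecel1* (DINE), an injury-induced peptidase, had 7.32, 7.34, 6.78 and 7.77 at day 2 and 8.21, 8.54, 9.05 and 8.47 at day 5, and rose by 1.26 (SE 0.27, adjusted p 0.0243). *Tubb3*, neuronal beta-tubulin, rose by 0.31 (SE 0.07, adjusted p 0.031), from 15.88, 16.02, 15.84 and 15.98 to 16.21, 16.27, 16.28 and 16.21. The *Tubb3* step is a small one on a bright probe with tightly grouped samples. *Ecel1* kept its call without KO day 5 replicate 1 or KO day 2 replicate 4 alone (otherwise adjusted p 0.0501 to 0.107), and *Tubb3* without KO day 2 replicate 2 or 4 alone (otherwise 0.06 to 0.107).

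Other growth genes did not pass in KO DRGs. *Gap43*, a growth cone protein, had a change of 0.60 (95% interval 0.22 to 0.98, adjusted p 0.17), although no day 2 sample reached a day 5 sample. *Sprr1a*, among the most strongly induced proteins of injured sensory neurons, had 13.72, 13.43, 12.60 and 13.73 at day 2 and 15.25, 15.80, 15.53 and 15.27 at day 5. These groups did not overlap either, yet the change of 2.09 had an SE of 1.11 and an adjusted p of 0.579. The SE is shared by all 6 groups, and KO control samples of *Sprr1a* had 8.15, 5.66, 5.48 and 11.43 (SD 2.78). The highest is replicate 4, the sample whose labels disagree on the day. WT controls of *Sprr1a* also varied, at 5.82, 9.28, 6.11 and 11.71. KO control replicates 1 and 4 and WT control replicates 2 and 4 shared an array with a lesioned sample. They had 8.15, 11.43, 9.28 and 11.71, while controls that shared it with another control had 5.48 to 6.11. *Npy* was alike, with a change of 2.06 (SE 0.96, adjusted p 0.493) and KO controls at 5.91, 4.67, 4.86 and 9.27 (SD 2.13). Its controls had 5.91, 9.27, 7.84 and 9.38 with a lesioned partner and 4.12 to 4.86 with a control partner. The part of the array partner was not tested here either. *Stmn4*, a microtubule regulator, had 0.52.

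Injury transcription factors had no member past the threshold among 22, with a median of -0.03. *Atf3* and *Jun* had 0.22 and 0.03, and *Junb*, *Fos* and *Myc* had -0.42, -0.50 and -0.26.

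Neuropeptides and secreted factors of the neuron moved in both directions. Of 20 listed genes *Nts* rose and *Bdnf*, *Adcyap1* and *Il6* fell, with a median of -0.40. Over all genes 0.756% rose and 0.219% fell. *Bdnf*, a neurotrophin, had 10.32, 10.35, 10.28 and 10.38 at day 2 and 9.75, 9.49, 9.34 and 9.32 at day 5. The day 2 samples agreed within 0.1, all above day 5, and the change was -0.86 (SE 0.13, adjusted p 0.0021), toward the control mean of 9.17 ± 0.30 (SD, n = 4). A second probe gave -0.58 (adjusted p 0.125).

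*Il6*, a cytokine that signals through gp130, had 7.68, 6.98, 7.37 and 7.42 at day 2 and 6.49, 6.43, 6.30 and 6.37 at day 5, with controls at 4.44. It fell without overlap by 0.96 on the log2 scale (SE 0.21, adjusted p 0.0293). *Il6* kept its call without KO day 2 replicate 2 and with no other sample left out (adjusted p 0.0564 to 0.0985). *Adcyap1*, which encodes PACAP, had 12.61, 12.23, 12.34 and 12.84 at day 2 and 11.78, 11.90, 11.92 and 12.11 at day 5, and changed by -0.58 (SE 0.11, adjusted p 0.0149). Both days stayed above the *Adcyap1* control mean of 10.55. The *Adcyap1* change was -0.88 with array partners of the same time point and -0.28 with partners of another one, and its call was lost without KO day 5 replicate 1, 2 or 3 (adjusted p 0.0564, 0.0549 and 0.0506). Calcitonin gene-related peptide (*Calca*), *Nppb* and *Cartpt* had -0.53, -0.90 and -0.69, with adjusted p of 0.065, 0.0822 and 0.0793.

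Among 31 nociceptor receptors and TRP channels *Trpv2*, a channel of large sensory neurons and of macrophages, fell, from 10.93, 11.06, 11.19 and 10.92 to 10.42, 10.56, 10.63 and 10.64. The change was -0.46 (SE 0.10, adjusted p 0.0244) and took the level to that of controls (10.59 ± 0.16, SD, n = 4). It lost its call when any of 5 of the 8 samples was left out (adjusted p 0.0536 to 0.0842). *Trpa1*, the irritant receptor, had -0.86 with an adjusted p of 0.0569. Of 41 sodium, calcium and potassium channel genes *Kcnmb1*, a subunit of BK channels, fell by 0.82 (adjusted p 0.00895). Its means were 7.86, 7.07 and 6.25 in control, day 2 and day 5 DRGs. Beside these lists 0.219% of all genes fell.

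Other neuronal genes that fell were chosen after their values were seen. *Nptx2*, a synaptic pentraxin, fell by 0.74 (adjusted p 0.00162), *Rab3b*, a vesicle GTPase, by 0.72 (adjusted p 0.00642) and *Unc13c*, a vesicle priming factor, by 0.70 (adjusted p 0.014). *Fxyd2*, a regulator of the sodium pump, fell by 0.77 (adjusted p 0.0378). In the list of 21 synaptic vesicle genes, which holds none of these 4, 0 passed and the median was -0.12. *Unc13c* lost its call without KO day 5 replicate 2 or 3 (adjusted p 0.0691 and 0.0614), and *Fxyd2* when any of 5 samples was left out (0.0835 to 0.133).

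The sharpest decline among genes above background at day 2 was that of serum amyloid A, a family of acute-phase apolipoproteins that inflammatory cytokines induce. *Saa2* (probe at chr7:54009535-54009594 in mm9) had 10.38, 9.62, 9.37 and 10.22 at day 2 and 7.81, 7.64, 7.73 and 7.60 at day 5. No samples overlapped, and day 5 was much more uniform. The change was -2.20 (SE 0.23, adjusted p 6.29e-05), or 4.60-fold lower, with controls still lower at 6.26 ± 0.52 (SD, n = 4).

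*Saa1* had 9.88, 9.14, 8.76 and 9.94 at day 2 and 7.59, 7.65, 7.58 and 7.79 at day 5, and changed by -1.78 (SE 0.21, adjusted p 0.000153). *Saa3*, the form that macrophages and fat tissue make, had 7.52, 6.58, 6.29 and 7.48 at day 2 and 4.93, 4.93, 4.50 and 4.21 at day 5, where 3 of 4 samples were above background. Its change was -2.33 (SE 0.26, adjusted p 0.000111), and the day 5 samples overlapped the controls (4.06 ± 0.38, SD, n = 4). *Saa1* and *Saa2* are near-identical genes whose RNA may bind to each other's probes, so their values are not independent.

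In all 3 genes day 2 replicates 1 and 4 were higher than replicates 2 and 3. *Saa1*, *Saa2* and *Saa3* changed by -2.33, -2.53 and -2.79 with array partners of the same time point and by -1.23, -1.87 and -1.87 with partners of another one. All 6 values passed.

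The promoters of the 3 genes are shown because they fell together. Each run is the RefSeq window on GRCm38.p6, read 5′ to 3′ on the strand of the gene, from 250 bases before to 50 bases after the start, and capitals mark the match to the C/EBP letters TTGCNNAA on either strand, since C/EBP factors drive acute-phase genes. *Saa1* is at chr7:46742931-46743230 on the minus strand, *Saa2* at chr7:46751583-46751882 on the plus strand and *Saa3* at chr7:46715627-46715926 on the minus strand.
Saa1: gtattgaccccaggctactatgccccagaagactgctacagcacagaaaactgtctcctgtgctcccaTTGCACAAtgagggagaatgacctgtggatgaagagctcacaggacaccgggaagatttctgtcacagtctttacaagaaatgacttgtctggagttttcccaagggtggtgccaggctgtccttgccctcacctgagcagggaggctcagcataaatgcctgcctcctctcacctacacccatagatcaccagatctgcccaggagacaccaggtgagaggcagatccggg
Saa2: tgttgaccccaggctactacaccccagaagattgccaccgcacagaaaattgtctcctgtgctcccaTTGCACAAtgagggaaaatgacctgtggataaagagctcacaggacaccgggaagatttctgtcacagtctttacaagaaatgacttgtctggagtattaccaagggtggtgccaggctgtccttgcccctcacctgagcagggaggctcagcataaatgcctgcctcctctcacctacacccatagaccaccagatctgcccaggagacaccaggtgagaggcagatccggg
Saa3: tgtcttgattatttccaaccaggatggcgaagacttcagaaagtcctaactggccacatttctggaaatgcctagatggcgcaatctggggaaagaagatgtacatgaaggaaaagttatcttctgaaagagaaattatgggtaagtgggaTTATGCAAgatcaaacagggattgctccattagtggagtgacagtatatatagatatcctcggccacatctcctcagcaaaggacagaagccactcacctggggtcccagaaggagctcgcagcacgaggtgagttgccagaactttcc
The matches begin at -182, -183 and -99 from the start, and no other motif searched overlaps them. In a global alignment with gaps the *Saa1* and *Saa2* windows were identical in 287 of 301 columns (95.3%), with the same 8 letters, and *Saa3* in 51.3% and 51.1% of columns with them. The letters occur in 10.8% of 32851 windows of all genes, in 11.4% of the windows of genes that rose and in 16.1% of those that fell. A match describes the letters and is not a bound site.

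The same search covered 132 of the genes that rose and 45 of those that fell, with 166 and 62 windows. Of a further 4 motifs, the AP-1 letters TGANTCA were in 7.81% of all windows, 12.0% of those of risers and 12.9% of those of fallers. The PU.1 letters GAGGAAGT, of a factor that governs macrophage genes, were in 3.2%, 4.82% and 4.84%. The letters TTANGTAA of NFIL3 and the PAR bZIP factors were in 2.32%, 2.41% and 1.61%. The windows of *Ctss* (chr3:95526536-95526835, plus strand, PU.1 letters in capitals, as their reverse complement) and *Anxa10* (chr8:62123144-62123443, minus strand, both AP-1 matches in capitals) are shown as examples of genes that rose.
Ctss: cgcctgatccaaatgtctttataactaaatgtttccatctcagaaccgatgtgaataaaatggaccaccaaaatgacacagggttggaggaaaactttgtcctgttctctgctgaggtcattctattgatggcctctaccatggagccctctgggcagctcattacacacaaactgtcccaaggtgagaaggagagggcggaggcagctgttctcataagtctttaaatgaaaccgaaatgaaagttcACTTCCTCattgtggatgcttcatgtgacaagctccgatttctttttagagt
Anxa10: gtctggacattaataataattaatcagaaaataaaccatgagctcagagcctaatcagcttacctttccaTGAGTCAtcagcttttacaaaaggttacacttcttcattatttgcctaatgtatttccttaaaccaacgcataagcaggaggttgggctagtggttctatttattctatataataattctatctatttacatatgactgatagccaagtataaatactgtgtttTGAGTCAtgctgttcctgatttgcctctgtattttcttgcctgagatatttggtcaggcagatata
The *Ctss* match begins at -2 and the *Anxa10* matches at -180 and -16 from the start. The *Anxa10* window also holds a match to the C/EBP letters, left in lower case.

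Other extracellular and stress genes fell. *Timp1*, an inhibitor of matrix metalloproteinases and a target of gp130 signalling, had 12.14, 11.58, 11.45 and 11.86 at day 2 and 10.36, 10.57, 10.46 and 10.46 at day 5. Each day 5 sample was lower, and the change was -1.29 (SE 0.20, adjusted p 0.00227), or 2.45-fold lower, with controls at a mean of 8.66. By array partner it was -1.59 (same time point) and -1.001 (another). It was the only member of 20 gp130 signal genes to pass (0.219% of all genes fell), and *Socs3* and *Osmr* of that list had -0.36 and -0.54. *Mt2*, a metallothionein, fell by 1.06 (adjusted p 0.0309) and *Gpx3*, a secreted glutathione peroxidase, by 0.65 (adjusted p 0.0343), as the only 2 of 21 genes of hypoxia, metal and oxidative stress. The *Mt2* change was -1.63 and -0.48 by array partner, and both calls were lost when any of 5 of the 8 samples was left out (adjusted p 0.0732 to 0.101 for *Mt2* and 0.0854 to 0.132 for *Gpx3*).

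Genes of the serpin family were among the fallers. *Serpinb5* (maspin) fell by 1.26 (adjusted p 0.00361), from a mean of 7.94 to 6.68. *Serpina3n*, an acute-phase serpin, fell by 0.55 (adjusted p 0.0136, and 0.0685 without KO day 5 replicate 2). *Procr*, the protein C receptor, fell by 0.91 (adjusted p 0.0181), and its call was lost without KO day 5 replicate 1 or 2 or KO day 2 replicate 1 (adjusted p 0.0601, 0.0667 and 0.06). All but *Serpinb5* were chosen after their values were seen.

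Less well known genes filled the rest of the list of strong fallers. *E030010A14Rik* (*Tmem252*) changed by -1.52 (adjusted p 0.000893), *2310043M15Rik* by -1.40 (adjusted p 0.0201) and *Accsl*, a relative of aminocyclopropane carboxylate synthase, by -1.44 (adjusted p 0.00434). *2310043M15Rik* had an adjusted p of 0.0859 without KO day 2 replicate 2 and of 0.0849 without KO day 5 replicate 4. *Fam150b* (*Alkal2*), a ligand of the receptor kinases ALK and LTK, had 8.98, 9.20, 9.74 and 9.33 at day 2 and 8.30, 7.85, 7.77 and 8.01 at day 5. It fell by 1.33 (SE 0.18, adjusted p 0.000505), to a day 5 mean of 7.98, and all 4 day 5 samples were still above the KO controls (7.55 to 7.76). The unnamed probe A_52_P139439, with a change of -1.28, shares 36 bases with the *Fam150b* probe and is the same locus. *TC1644926*, a transcript without a gene name, rose by 1.71 (adjusted p 0.000273).

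*Arntl* (*Bmal1*), the activator of the circadian clock, was the only one of 17 PAR bZIP and clock genes to pass, beside 0.975% of all genes. It had 6.13, 5.89, 5.86 and 5.66 at day 2 and 7.03, 6.82, 6.89 and 7.18 at day 5, with controls at 6.69 ± 0.20 (SD, n = 4). Day 2 samples were all below day 5 samples and below the control mean, and the change was 1.09 (SE 0.17, adjusted p 0.00197). The list as a whole had a median of -0.25. *Dbp*, *Per3* and *Gm129* (*Ciart*), which the clock drives in the opposite phase, had -0.71, -0.53 and -1.12 (adjusted p 0.376, 0.254 and 0.274), and with array partners of another time point *Dbp* and *Gm129* had 0.0065 and 0.015. The hour of dissection is not given in the sources used here, so that day and time of day cannot be told apart.

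Its promoter, at chr7:113207261-113207560 on the plus strand, is 1 of 2 RefSeq windows of the gene and holds the ROR element letters TAGGTCA, in capitals, which 2.61% of all windows, 3.01% of those of risers and 0.0% of those of fallers contain.
Arntl: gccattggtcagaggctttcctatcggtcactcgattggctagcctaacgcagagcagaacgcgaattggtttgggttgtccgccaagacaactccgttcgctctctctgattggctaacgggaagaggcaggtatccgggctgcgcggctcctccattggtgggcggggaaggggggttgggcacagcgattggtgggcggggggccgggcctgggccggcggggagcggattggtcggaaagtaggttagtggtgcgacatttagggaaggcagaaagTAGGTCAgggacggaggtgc
The *Arntl* match begins 31 bases after the start, and no other motif searched is in this window.

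Beside these groups most lists had few or no members past the threshold, which 0.975% of all genes passed. The extracellular matrix list (43 genes) had *Mmp16* (0.67) and a median of 0.30, cholesterol synthesis (24) had *Hsd17b7* (0.68), genes of p53 and cell death (20) had *Ccng1* (0.47), and vascular genes (16) had *Cspg4* (0.79). The extracellular matrix median was -0.12 with array partners of the same time point and 0.72 with partners of another one. *Mmp16* and *Cspg4* had another probe at 0.09 and -0.13, and *Cspg4* changed by 0.29 and 1.29 by array partner. *Cspg4* lost its call when any of 6 samples was left out (adjusted p 0.0602 to 0.162), *Mmp16* likewise (6 samples, 0.0508 to 0.123), and *Ccng1* without KO day 5 replicate 3 (0.0649). In the sensory neuron list *Tubb3* alone passed.

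No member passed in the lists of satellite glia (19 genes, median 0.14), Schwann cell myelin (19, -0.07), lymphocytes (23, 0.08), cell cycle (40, -0.0047), integrated stress and ER chaperones (30, 0.02), polyamine and tetrahydrobiopterin synthesis (15, 0.0039), respiratory chain (33, 0.01), ribosomal proteins (36, -0.05), skeletal muscle (13, -0.29), adipocytes (9, 0.69), and spinal cord glia and meninges (12, 0.32). Some of these medians differed by array partner (same and another time point). That of Schwann cell myelin was -0.86 and 0.67, and that of spinal cord glia and meninges -0.06 and 0.75. All 13 neutrophil genes had a positive change, with a median of 0.57, and 0 passed. *Ltf*, a granule protein of neutrophils, had 7.70, 7.03, 10.44 and 8.29 at day 2 and 9.49, 9.29, 9.15 and 10.68 at day 5. Day 2 replicate 3 was thus higher than 3 of the day 5 samples. Over all 32 lists 39 genes of the 267 had an entry, 31 that rose and 8 that fell.

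**Figure D4:**
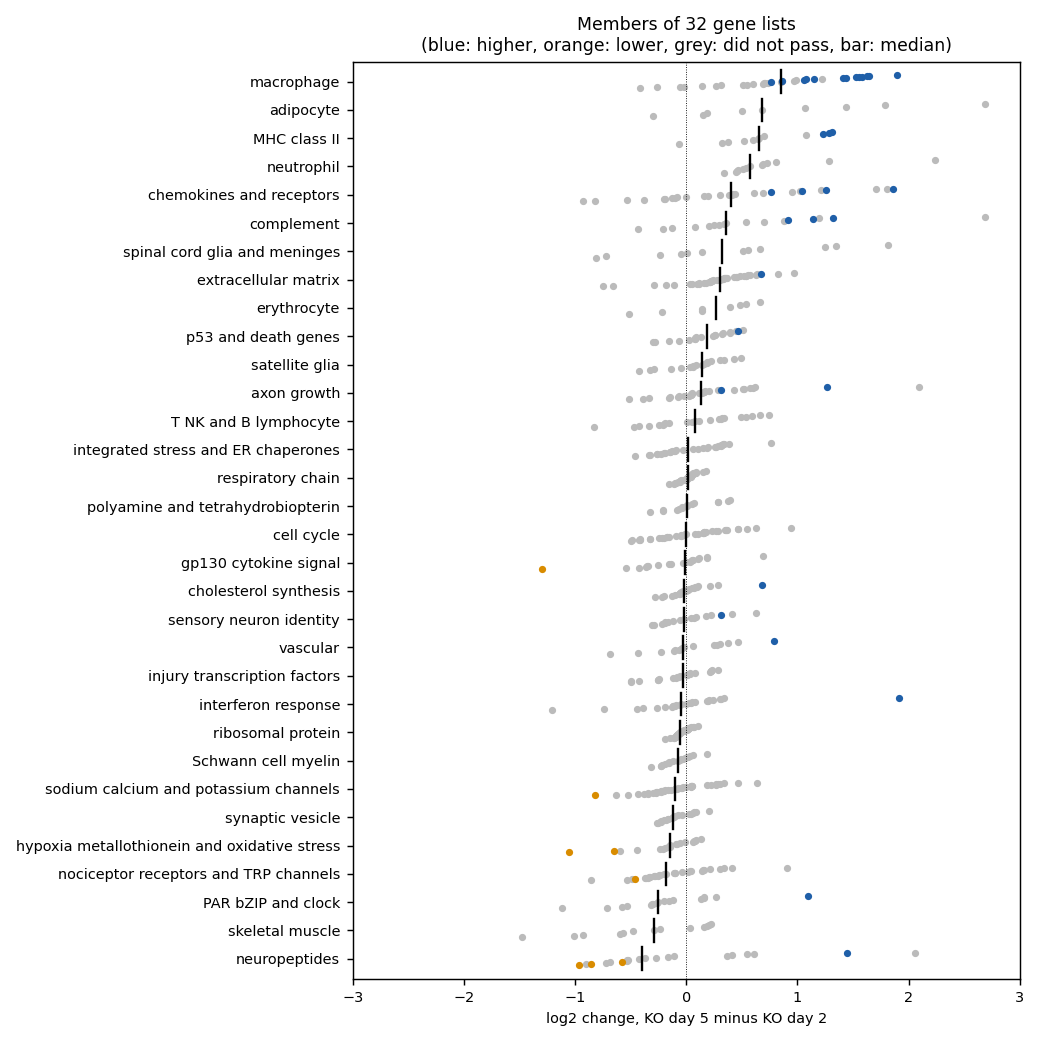
Change from KO day 2 to KO day 5 (horizontal axis, log2) of every measured member of 32 gene lists. Blue points rose, orange points fell, grey points did not pass, and black bars are list medians. The macrophage list has the highest median (0.86) and the neuropeptide list the lowest (-0.40), and 1 member of the interferon list lies beyond the axis limit of 3.

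To see whether the interval change depended on NFIL3, it was set against that in WT mice. There, 204 genes passed (0.745%), with 164 higher (0.599%) and 40 lower (0.146%) at day 5. The groups share no sample, but 4 arrays carried a KO and a WT sample of these groups. Of the KO risers 114 also rose in WT, which is 55.1% of the KO and 69.5% of the WT list, and of the fallers 19 did so, or 31.7% and 47.5%. No gene passed in opposite directions. The WT change had the same sign in 205 of the 207 and in 58 of the 60 genes, with medians of 0.72 and -0.47 beside 0.91 and -0.76 in KO. These genes were chosen by their KO change, so that the smaller WT medians are no test of a difference. The share of genes with the same sign was not counted over all genes. Over the 15467 genes above background in all 16 lesion samples, KO and WT changes had a Pearson correlation of 0.70. A shared sign is thus not particular to the genes that passed in KO.

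Tested directly as KO change minus WT change, no gene passed (smallest adjusted p 0.640 in limma). At an unadjusted p under 0.05 there were 696 genes, 2.54% of all, where chance alone would give about 5%. The count was thus below that of chance. Of the 696 genes, 34 were among the 267, but the 267 were chosen by their KO change, which is part of the difference. The direct test thus did not show a difference at this number of arrays, and intervals of single genes were wide. For *Ms4a7* the WT change was 2.24 and the difference -0.34 (95% interval -0.89 to 0.21). For *Anxa10* the WT change was 2.02 and the difference 0.26 (-0.42 to 0.94). *Saa2* had -2.19 in WT and a difference of -0.01 (-0.71 to 0.68).

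The macrophage list had 12 of 32 genes that rose in WT and a median of 0.83, beside 13 and 0.86 in KO. Over all genes 0.599% rose in WT. *Arntl* rose in both, by 1.49 in WT and 1.09 in KO. *Per3* and *Dbp* fell in WT by 1.01 and 1.44 and did not pass in KO, with differences of 0.47 (-0.08 to 1.02) and 0.73 (-0.11 to 1.58) that did not pass either.

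Some fallers had a smaller WT change. All genes of this paragraph were taken from those that passed in KO, which favors a large KO change, so their differences are no test. Other fallers had no smaller WT change, and *Saa1*, *Mt2* and *Serpinb5* had differences of 0.02, 0.02 and 0.09. *Timp1* had -0.60 in WT, and the difference was -0.69 (95% interval -1.29 to -0.09, adjusted p 1.00). *Il6* had -0.32 and a difference of -0.64 (-1.26 to -0.03), *Bdnf* -0.46 and -0.40 (-0.80 to -0.0037), and *Serpina3n* -0.11 and -0.43 (-0.75 to -0.12). *Car1* rose by 1.38 in WT, with a difference of 0.43 (0.07 to 0.80). None of these differences passed after adjustment.

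By the smallest unadjusted p for the difference, with at least 8 of the 16 lesion samples above background, the *Fam150b* locus came first. The probe A_52_P139439 there changed by -1.28 in KO and -0.20 in WT, a difference of -1.09 (unadjusted p 9.95e-05), and the *Fam150b* probe itself by -1.33 and -0.26 (0.000432). *BQ944386*, an expressed sequence tag, changed by 0.84 and 0.01, and *B230214O09Rik* by 0.48 and -0.29. *Accsl* had a difference of -1.44 (95% interval -2.16 to -0.72), with a WT change of -0.0027. All had an adjusted p of 1.00.

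**Figure D5:**
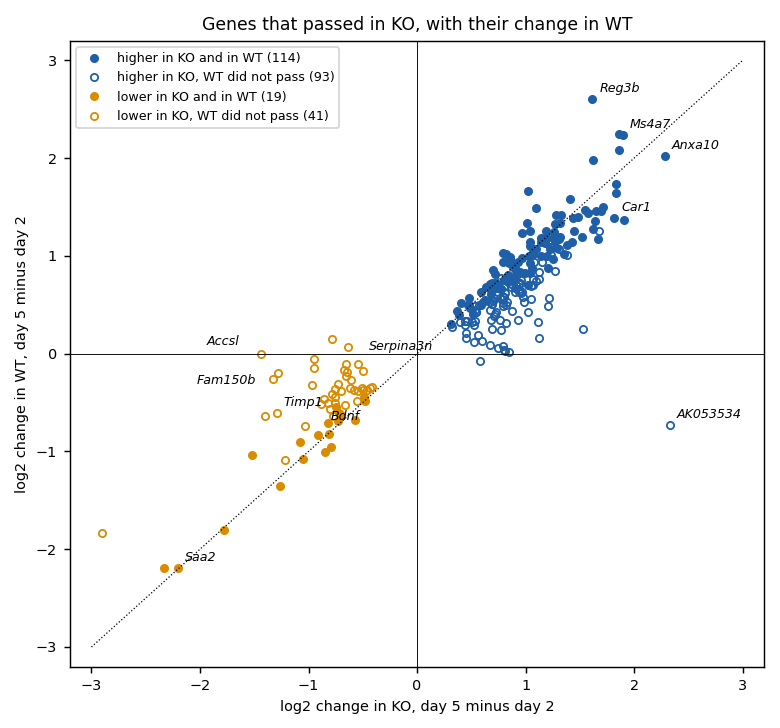
Change from day 2 to day 5 in WT (vertical axis, log2) against that in KO (horizontal axis, log2) of the 267 genes that passed in KO. Filled points passed in both genotypes (114 higher, 19 lower), open points only in KO, and the dotted line marks equal changes. The genes shown were chosen by their KO change, so the plot is no test of a difference.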

How the data were processed

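RNA of 24 samples in 6 groups was measured on 12 Agilent 4x44K whole mouse genome arrays of 3 slides, with a sample in each color. The authors extracted the scans with Feature Extraction 10.7.3.1 and deposited, for each spot and channel, foreground and background intensity without normalization. Samples were grouped by title. KO day 2 and day 5 each held 2 Cy3 and 2 Cy5 samples, and the median share of probes well above background was 69.5% in Cy3 and 62.5% in Cy5.

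From these intensities, mean foreground was corrected with median background by the Edwards method, quantile normalized over the 24 channels and put on a log2 scale, after the authors' methods where stated. Control and outlier spots were left out and spots of a probe averaged, which left 417 values missing. A model with a mean per group was fitted to all 24 samples with lmFit and eBayes (limma 3.58.1, statmod 1.5.0, data.table (1.17.8), R 4.3.3), and p-values were adjusted over 41174 probes. Figures and motif searches used Python 3.11.15 with pandas 2.3.3 and matplotlib 3.10.9. Code was tested on simulated data. Where a probe was above background in no sample of the dimmer day, the fold is a bound.

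Named genes are *Nfil3* and *Gapdh*, the 10 highest and 10 lowest changes among genes that passed without overlap and were above background in the brighter day, up to 3 members of each list with the smallest p, and the 3 smallest p for the KO and WT difference. Others were chosen after their values were seen. Comparison, lists and rule were chosen with earlier results of these data known. Probe positions are mm9, from the array files, and promoters are RefSeq windows of GRCm38.p6. The alternatives were other background corrections, normalizations, filters, probe rules, blocks and covariates, and samples left out.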

Additional observations from a re-analysis of the deposited data

Results flagged for a closer look

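In 4 of 186 pairs of a gene and a group, a sample stood apart from the other 3 of its group by more than Dixon's critical value for 4 samples, where chance gives about 1 in 20. *Ccl8* was 10.3 in KO day 2 replicate 1, against 9.54 to 9.63 in the others, and *Car1* was 6.95 in the same sample, against 6.49 to 6.56. *Chl1* was 12.95 in KO day 2 replicate 4, against 12.10 to 12.18, and *Mpeg1* was 9.40 in KO day 5 replicate 1, against 9.79 to 9.86. Each lay toward the other day, and the 4 genes rose over the interval without overlap and kept their calls with that sample left out.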

How the results depend on the processing

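The count of 267 genes (207 higher, 60 lower) became 470 (355, 115) without background correction, 453 (344, 109) with normexp and 420 (312, 108) with the array as a random block (correlation 0.262). Within slide 1 it was 122 (10 of them lower), within slide 2 139 (32 lower), and in the fit of the 8 samples alone 0 (0, 0). The lower count was 94 after the filter on dim probes and 104 with slide as a block. Leaving out a sample gave 145 to 312 genes (113 to 248 higher, 31 to 64 lower). Among samples with array partners of the same time point, a subset chosen after seeing the data, 34 passed (20, 14), and with partners of another time point 206. The remaining alternatives, with processed signals, median foreground, loess, outlier spots, averaged probes, any probe of a gene, dye, array partner, intensity trend or KO control replicate 4 left out, stayed within 1.5 times, at 222 to 342. The KO and WT difference had 0 genes in each of 27 alternatives.

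Replicate numbers did not pair the samples (correlations of same-numbered samples -0.119 to 0.140), and the replicate block gave 271 genes (208, 63). None of the 81 examined genes that passed changed direction in any alternative. *Ms4a7*, *Trem2*, *Igf1*, *Anxa10*, *Car1*, *Pde1a*, *Itpr1* and *Ajap1* passed in all but the fit of the 8 samples alone. Only genes that had not passed changed sign. These were *Nfil3*, *Gapdh*, *Dbp* and *Gm129*. *Nfil3* had 2.70 within slide 1, where KO day 2 replicate 3 alone stood for day 2. It had 0.089 and 0.28 without KO day 5 replicates 2 and 4, and 0.27 without KO day 2 replicate 4. Over all samples left out *Nfil3* had -0.80 to 0.28. *Gapdh* had -0.000258 to 0.11 over samples left out and -0.044 with partners of the same time point. With partners of another time point *Dbp* had 0.0065 and *Gm129* 0.015. The causes were not tested. Signal over background sets the lower limit, and 182 of the 207 risers and 55 of the 60 fallers were above background in all 8 samples.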

Other observations

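Retinoic acid is broken down by the CYP26 enzymes, and the 2 of their genes that passed both rose over the interval. *Cyp26a1* had 5.85, 5.12, 5.39 and 5.56 at day 2 and 6.47, 6.56, 6.84 and 6.77 at day 5 (change 1.18, adjusted p 0.00055 in limma), from a KO control mean of 3.94. *Cyp26b1* had 7.62, 7.15, 7.65 and 8.02 at day 2 and 8.40, 9.19, 9.02 and 9.38 at day 5 (change 1.39, adjusted p 0.0226), with a control mean of 9.18, so that day 2 was low. *Cyp26b1* lost its call when KO day 5 replicate 2, 3 or 4 or KO day 2 replicate 2 was left out (adjusted p 0.0693 to 0.0927). The GABA-A receptor subunits *Gabrg1* and *Gabrb1* rose by 1.21 (adjusted p 0.000893) and 0.54 (adjusted p 0.0413), and *Gabrb1* lost its call in 7 of 8 cases with a sample left out (0.0683 to 0.159). *Loxl2*, an enzyme that cross-links collagen, rose by 1.36 (adjusted p 0.00418), and *Lgals1*, a galectin of axons and immune cells, by 0.58 (adjusted p 0.0056). *Msh6*, a mismatch repair gene, fell by 0.85 (adjusted p 0.00295), from a mean of 10.89 to 10.04, with controls at 9.62. All of these were chosen after their values were seen.

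*AK088332*, a cDNA without a gene name whose probe lies 92994 bases from the *Arntl* probe in mm9, was among the 10 strongest risers. It had 3.61, 3.25, 3.03 and 3.36 at day 2, above background in 0 of 4 samples, and 5.26, 4.61, 5.09 and 5.06 at day 5, which is at least 2.65-fold higher (adjusted p 0.0056 in limma). Its control mean of 5.16 was close to day 5, as for *Arntl*.

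*AK053534* had the highest change of all genes that passed, 2.33, but was above background in none of the 8 samples, so that no fold is given. Erythrocyte genes had a median change of 0.27 in KO and of -1.25 in WT. The difference had an unadjusted p under 0.05 in limma in 5 of 8 genes, beside 2.54% of all genes, and 0 passed after adjustment. Markers of the same cell type are not independent of each other, so the count is no test of the list. *Slc4a1*, the band 3 protein of red cells, had 7.71, 7.13, 9.51 and 7.72 at KO day 2 and 8.11, 8.32, 7.85 and 9.94 at KO day 5. Skeletal muscle signal was present in some samples, with *Myl1* at 9.38, 5.42, 5.10 and 10.94 at day 2 and 12.10, 3.85, 3.69 and 5.29 at day 5.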
